A study of Mus musculus with 17 samples.

Results

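The glycolysis enzymes described here are 10 genes chosen by name, Hk1, Gpi1, Aldoa, Aldoc, Tpi1, Pgk1, Pgam1, Eno1, Eno2 and Ldhb, with every probe set whose only gene symbol in the array annotation is one of them. Of these 10 genes, 8 had such probe sets, 21 in all, out of 18193 genes and 45037 probe sets on the array, and Eno1 and Gpi1 were not analysed here. One further probe set, 1436822_x_at, carries the symbol Hk1 beside those of ribosomal protein genes and was left out. The control probe sets for Gapdh are given apart.

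All 17 arrays hold mRNA of 1 isolate of adult female C57BL/6 mouse cortex and are of an Affymetrix mouse type. Aliquots of 0.1, 1 and 10 pg, amounts of the order found in single cells, were amplified linearly as antisense RNA (aRNA) for a total of 4 or 2 rounds, whereas 5 µg were hybridized with no aRNA amplification, called bulk here. The groups are 0.1, 1 and 10 pg after 4 rounds with 3 arrays each, 0.1 and 1 pg after 2 rounds with 3 arrays each, 10 pg after 2 rounds with 1 array, and bulk with 1 array. No genotype or treatment differs between them, and replicates within a group were amplified separately from that mRNA, so that p-values cover the spread of amplification and say nothing of animals. The methods do not say whether each replicate was also diluted separately. A deviation of a dilution shared by replicates and an effect of input cannot be told apart. The dilution series asks how far the level read for a transcript depends on the amount of starting mRNA and on the number of rounds.

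Glycolysis splits glucose into pyruvate in the cytosol and yields ATP and NADH, and lactate dehydrogenase interconverts pyruvate and lactate. The cortex runs mainly on glucose, and its neurons and glia use partly different isoforms of the same enzymes, such as enolase 2 in neurons and aldolase C in astrocytes. Several of the transcripts are abundant in brain and are often used as housekeeping controls.

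A level is a log2 value less the array's median, after each array was scaled to the same range between its 10th and 90th percentiles. Levels of different probe sets are not amounts on 1 scale and are not set against each other, except where a median over probe sets is taken. A change is the difference of group means in log2, tested with limma across all 45037 probe sets, and a probe set is called where the p adjusted by Benjamini and Hochberg lies below 0.05. The probe set whose mean over the 17 arrays is highest represents its gene, and the other probe sets of the gene are given beside it. Without a measured background, changes of probe sets near or below the array median have a less certain size.

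The single 10 pg array after 2 rounds stood apart. It holds 895 distinct values, against 3788 in bulk, so that ties are frequent. On the arrays of 0.1 pg after 2 rounds the distinct values numbered 1276, 1594 and 2119, and on replicate 1 the same value of -2.83 was read for 4 of the 21 probe sets. Few distinct values, 1712, were also held by replicate 3 of 1 pg after 4 rounds. In bulk the neuron markers had a median percentile of 88.4 among all probe sets (8 of 8 measured), the astrocyte markers 91.8 (7 of 8) and the oligodendrocyte markers 77.7 (5 of 6). Microglia markers had a median of 36.9 (6 of 6), endothelial markers 69.2 (5 of 5), erythroid markers 54.4 (2 of 3) and muscle markers 32.6 (4 of 4). Single markers of a type spread widely, from 8.8 to 98.9 for microglia, from 23.2 to 94.1 for endothelium and from 15.0 to 87.1 for muscle. The neuronal Tubb3 lay at the percentile of 11.1 and the oligodendrocyte gene Mog at 15.4. Such mRNA pools many cell types, so fewer cells of a type and less RNA per cell cannot be told apart in its levels.

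The enzymes ranked high in bulk, and their rank was lower at the smallest input. The median percentile of the 8 genes among the probe sets of an array was 77.8 ± 7.38, 87.0 ± 4.00 and 89.0 ± 9.69 for 0.1, 1 and 10 pg after 4 rounds (SD, n = 3 each). After 2 rounds it was 70.8 ± 8.97 and 85.7 ± 3.23 for 0.1 and 1 pg (SD, n = 3 each) and 97.2 on the single 10 pg array, and in bulk it was 94.8. Over all 21 probe sets the median was 66.0 ± 11.7, 75.1 ± 20.3 and 85.1 ± 15.4 after 4 rounds, 44.1 ± 10.4, 77.6 ± 8.40 and 97.5 after 2 rounds, and 90.7 in bulk. The representing probe sets were chosen for the highest mean on these same arrays, which favours high ranks for the 8 genes. These ranks are descriptions and were not tested, and no other set of high level was ranked beside them.

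**Figure D1:**
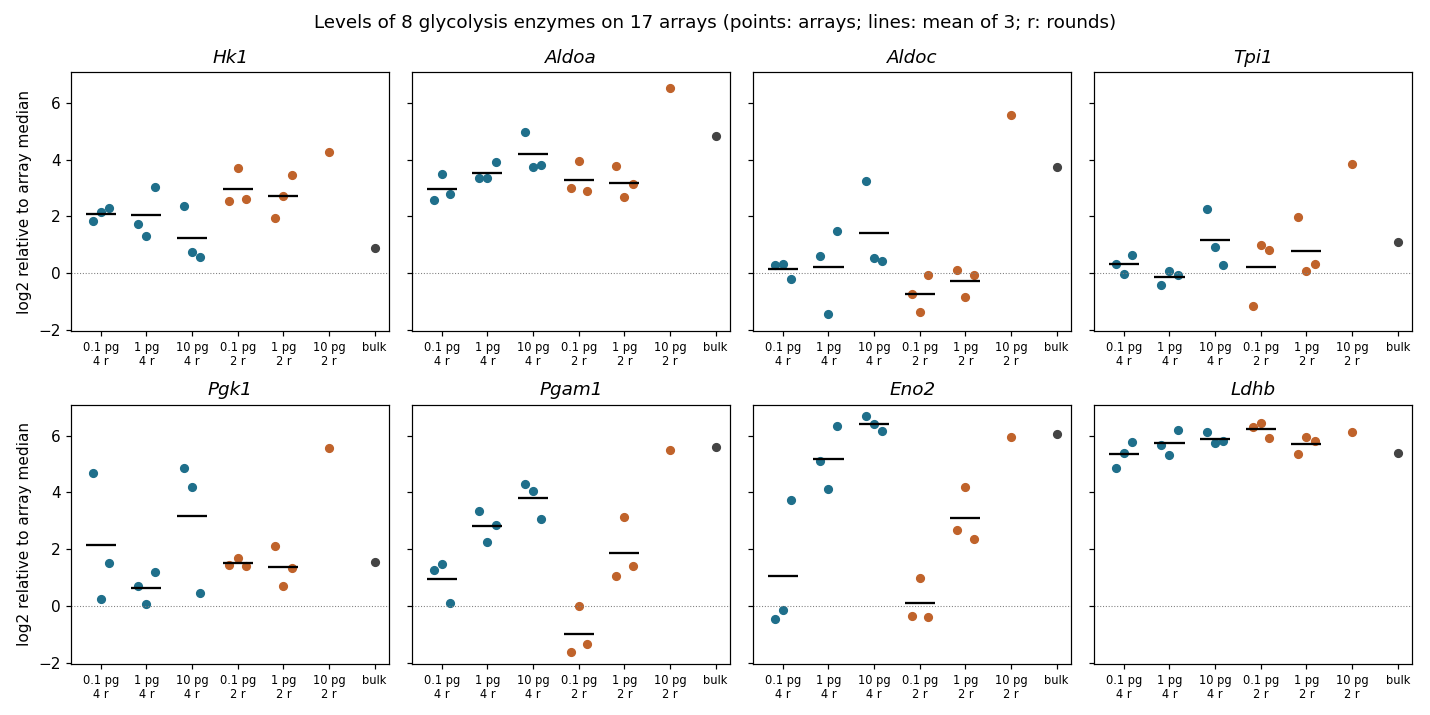
Levels of the 8 measured glycolysis enzymes, 1 panel per gene, each by its representing probe set. The vertical axis is log2 relative to the array median, the horizontal axis gives input (pg) and rounds (r), each point is 1 array and each line the mean of 3. The means of Eno2 and Pgam1 are lowest at 0.1 pg and highest at 10 pg after both numbers of rounds, whereas Ldhb stays between 4.88 and 6.44 on all arrays.

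For 0.1 against 10 pg after 4 rounds the largest change among the 21 probe sets was that of Eno2, the neuronal enolase, which converts 2-phosphoglycerate to phosphoenolpyruvate. Its 1 probe set, 1418829_a_at, read -0.47, -0.15 and 3.74 for 0.1 pg after 4 rounds, 5.09, 4.14 and 6.33 for 1 pg, and 6.68, 6.40 and 6.18 for 10 pg. The 0.1 pg arrays all lay below the 10 pg arrays, but replicate 3 of 0.1 pg was far above the other two. After 2 rounds it read -0.34, 0.99 and -0.39 for 0.1 pg, 2.69, 4.19 and 2.37 for 1 pg, and 5.95 on the 10 pg array, and bulk read 6.06. In mean level the groups ran downward through 10 pg after 4 rounds (6.42 ± 0.25, SD, n = 3), bulk, 10 pg after 2 rounds, 1 pg after 4 rounds (5.18 ± 1.10), 1 pg after 2 rounds (3.08 ± 0.97), 0.1 pg after 4 rounds (1.04 ± 2.34) and 0.1 pg after 2 rounds (0.09 ± 0.79). Neighbours in this order overlapped in their arrays wherever both had 3. Eno2 fell by 5.38 on the log2 scale for 0.1 against 10 pg after 4 rounds (SE 0.889, adjusted p = 0.00165). That SE rests on the spread shared by all groups, whereas the SD was 2.34 at 0.1 pg and 0.25 at 10 pg. The call of Eno2 and the other 4 among the 21 probe sets for this comparison were all lost with the test of the study's methods and at a false discovery rate of 0.1%.

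Pgam1, the phosphoglycerate mutase that acts one step before enolase, followed the input in the same way. Probe set 1426554_a_at read 1.27, 1.47 and 0.10 for 0.1 pg after 4 rounds, 3.35, 2.25 and 2.86 for 1 pg, and 4.30, 4.07 and 3.07 for 10 pg. After 2 rounds it read -1.64, 0.00 and -1.35 for 0.1 pg, 1.07, 3.14 and 1.40 for 1 pg, 5.50 for 10 pg, and bulk read 5.60. All 3 arrays of 0.1 pg lay below all 3 of 10 pg after 4 rounds, and all of them were below bulk. The order of mean levels ran from bulk and 10 pg after 2 rounds down through 10 pg after 4 rounds (3.81 ± 0.66), 1 pg after 4 rounds (2.82 ± 0.55), 1 pg after 2 rounds (1.87 ± 1.11), 0.1 pg after 4 rounds (0.95 ± 0.74) and 0.1 pg after 2 rounds (-1.0 ± 0.87, SD, n = 3 each). The arrays of 0.1 pg after 4 and after 2 rounds did not overlap, whereas the other neighbours with 3 arrays each did. Pgam1 fell by 2.86 for 0.1 against 10 pg after 4 rounds (SE 0.617, adjusted p = 0.00907). Without replicate 1 of 10 pg it was -2.62 and this call was lost (adjusted p = 0.0536).

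Eno2 and Pgam1 were the 2 of 8 genes called for 0.1 against 10 pg after 4 rounds by their representing probe set, where 4.99% of all genes were called lower. Of the 21 probe sets 5 fell and 0 rose, against 4.83% of all probe sets called lower and 4.04% called higher. Calls were more frequent among probe sets with higher levels. With only the 22062 probe sets whose mean was not below the array median, 1850 were called lower and 1851 higher. The median change was -1.23 over the 21 probe sets, of which 17 were below 0. Over all probe sets it was 0.10, with 20799 of 45037 below 0. The other 3 that fell belong to Aldoa and Ldhb, genes whose other probe sets were not called.

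**Figure D2:**
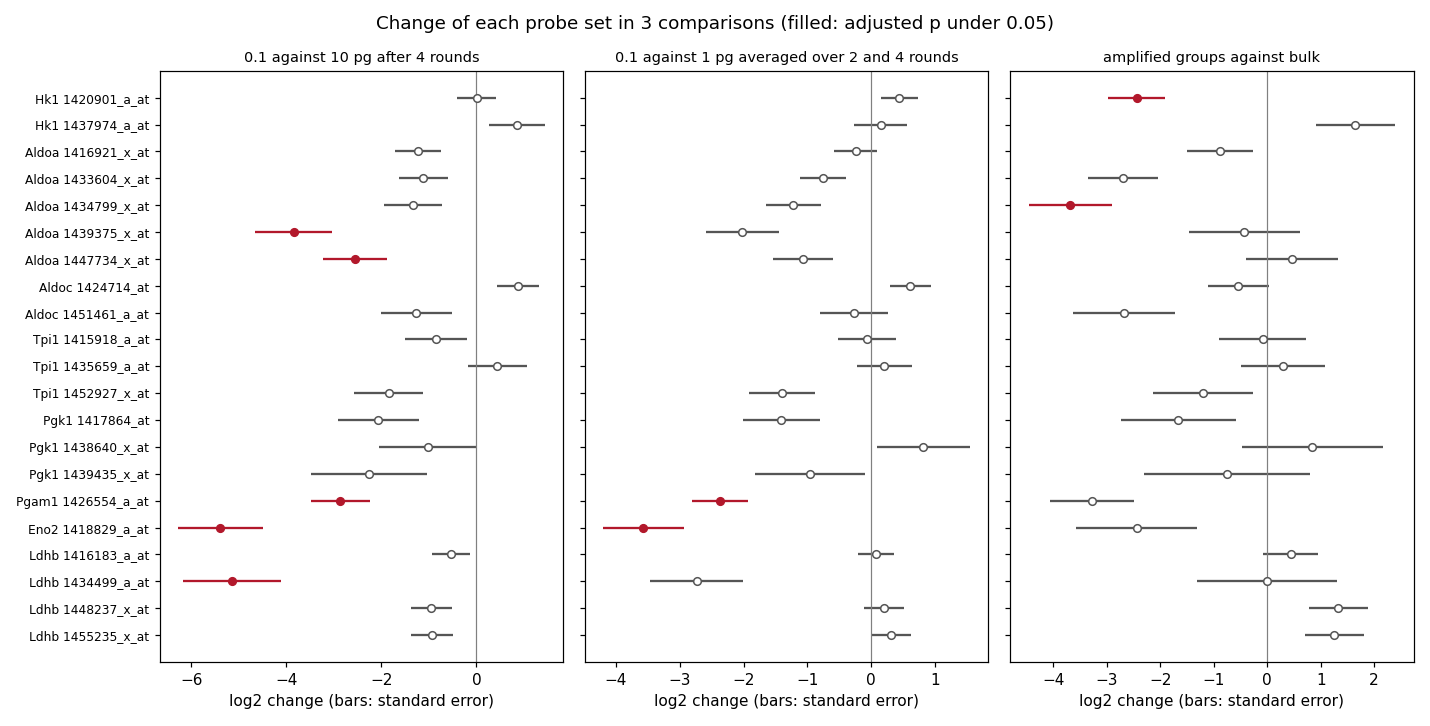
Log2 change (horizontal axis) of each of the 21 probe sets (rows) in 3 comparisons, with bars for the standard error and filled points for an adjusted p under 0.05. For 0.1 against 10 pg after 4 rounds 5 are filled, all to the left of 0, and for 0.1 against 1 pg the filled points are Pgam1 and Eno2.

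Ldhb, the lactate dehydrogenase B subunit, gave probe sets that differed most in how they followed input. Probe set 1416183_a_at read 4.88, 5.39 and 5.76 for 0.1 pg after 4 rounds, 5.68, 5.31 and 6.20 for 1 pg, and 6.11, 5.73 and 5.80 for 10 pg. After 2 rounds it read 6.29, 6.44 and 5.93 for 0.1 pg, 5.34, 5.94 and 5.80 for 1 pg, 6.11 for 10 pg, and bulk read 5.39. The 0.1 pg arrays overlapped those of 10 pg after 4 rounds, and the change of -0.54 for 0.1 against 10 pg after 4 rounds did not pass (SE 0.404, adjusted p = 0.434). The order of means ran from 0.1 pg after 2 rounds (6.22 ± 0.26) to 0.1 pg after 4 rounds (5.34 ± 0.45, SD, n = 3 each), so the smallest input stood at both ends of it, with no overlap between them. The neighbours with 3 arrays overlapped.

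Probe set 1434499_a_at of the same gene read -0.98, -1.66 and 3.27 for 0.1 pg after 4 rounds, 1.69, 2.38 and 2.86 for 1 pg, and 5.75, 5.38 and 4.93 for 10 pg. All 10 pg arrays lay above all 0.1 pg arrays, and replicate 3 of 0.1 pg was again far above the other two, as for Eno2. After 2 rounds it read -2.83, -1.77 and -0.48 for 0.1 pg, 3.21, 0.00 and 1.85 for 1 pg and 6.30 for 10 pg, and bulk read 2.36. This probe set fell by 5.14 for 0.1 against 10 pg after 4 rounds (SE 1.03, adjusted p = 0.00587; 0.132 with the methods' test). Here too the SE rests on the shared spread, whereas the SD of this probe set was 2.7 at 0.1 pg and 0.41 at 10 pg. In bulk it was below every 10 pg array. Probe sets 1448237_x_at and 1455235_x_at ranged from 3.59 to 6.09 and from 3.57 to 6.19 over the 17 arrays, with changes of -0.95 (adjusted p = 0.189) and -0.93 (adjusted p = 0.193). The difference between the changes of the probe sets of a gene was not tested. The suffix _a_at marks probes that match several transcripts of a gene, and _x_at marks probes that may bind other transcripts.

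Aldoa, the aldolase that splits fructose 1,6-bisphosphate in most tissues, had 5 probe sets, all of the _x_at kind. The representing one, 1416921_x_at, read 2.59, 3.50 and 2.78 for 0.1 pg after 4 rounds, 3.35, 3.34 and 3.91 for 1 pg, and 4.98, 3.74 and 3.83 for 10 pg. With 2 rounds the values were 3.0, 3.94 and 2.91 for 0.1 pg, 3.77, 2.67 and 3.14 for 1 pg, 6.54 for 10 pg, and bulk read 4.83. The 0.1 pg arrays after 4 rounds lay below the 10 pg ones, but the change of -1.23 did not pass (SE 0.481, adjusted p = 0.121). With the median of the 5 probe sets on each array in place of this one, the change was -3.26 and passed (adjusted p = 0.0102). That median fell on a different probe set on each 0.1 pg array after 4 rounds, so levels of different probe sets entered this change. Without replicate 1 of 10 pg the change of the representing probe set was -0.83. The groups ran from 10 pg after 2 rounds and bulk through 10 pg (4.18 ± 0.69) and 1 pg after 4 rounds (3.53 ± 0.33) to 0.1 pg (3.28 ± 0.57) and 1 pg after 2 rounds (3.19 ± 0.55) and 0.1 pg after 4 rounds (2.96 ± 0.48, SD, n = 3 each), and each pair of neighbours with 3 arrays overlapped.

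Probe set 1439375_x_at of Aldoa read 2.09, 0.15 and -0.17 for 0.1 pg after 4 rounds, 2.07, 0.97 and 4.11 for 1 pg and 5.56, 4.31 and 3.73 for 10 pg. No 0.1 pg array reached a 10 pg array, and the 1 pg arrays spread over both. It fell by 3.85 for 0.1 against 10 pg (SE 0.816, adjusted p = 0.00846; 0.091 with the methods' test), a call lost without replicate 1 of 10 pg (-3.33, adjusted p = 0.055). Probe set 1447734_x_at read 1.71, 1.32 and 1.31 for 0.1 pg, 2.21, 1.44 and 3.91 for 1 pg and 5.13, 3.60 and 3.25 for 10 pg after 4 rounds. It fell by 2.55 (SE 0.67, adjusted p = 0.0265), and this call was lost when any 1 of the 6 arrays other than replicate 3 of 10 pg was left out. The change then lay between -2.74 and -1.98, with adjusted p of up to 0.145. The remaining probe sets, 1433604_x_at and 1434799_x_at, ranged from -1.95 to 0.46 and from -0.91 to 2.12 over the 9 arrays after 4 rounds, with changes of -1.12 (adjusted p = 0.184) and -1.33 (adjusted p = 0.186).

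**Figure D3:**
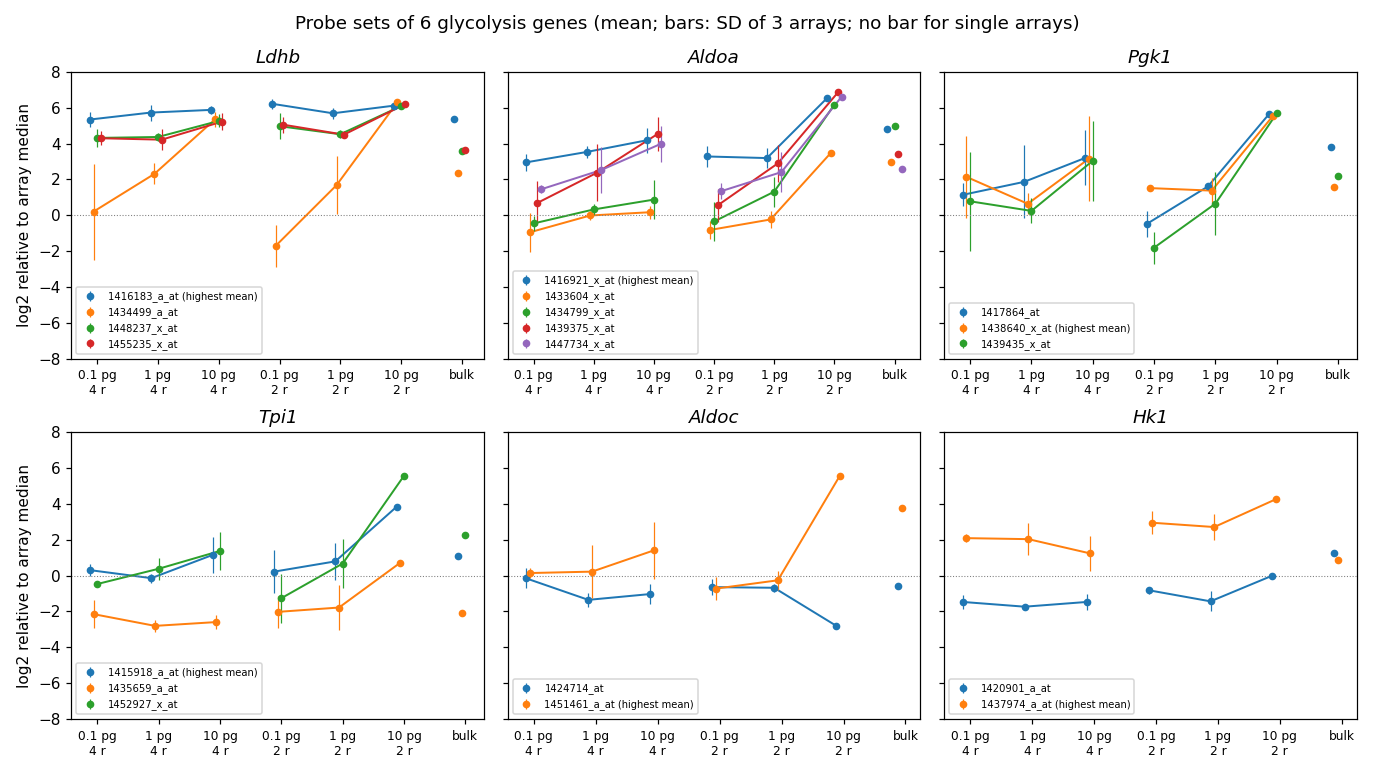
Group means of every probe set of Ldhb, Aldoa, Pgk1, Tpi1, Aldoc and Hk1 (vertical axis, log2 relative to the array median) by input (pg) and rounds (r), with bars for the SD of 3 arrays and no bar for the single arrays. The 0.1 and 10 pg means after 4 rounds are 0.21 and 5.35 for Ldhb 1434499_a_at and 5.34 and 5.88 for Ldhb 1416183_a_at.

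Hk1, hexokinase 1, which phosphorylates glucose on its entry into the cell and is the main hexokinase of brain, was not called with dilution. Its representing probe set 1437974_a_at read 1.83, 2.14 and 2.29 for 0.1 pg after 4 rounds, 1.73, 1.32 and 3.04 for 1 pg, and 2.37, 0.75 and 0.58 for 10 pg. The arrays of 2 rounds gave 2.53, 3.70 and 2.61 for 0.1 pg, 1.95, 2.72 and 3.45 for 1 pg, 4.27 for 10 pg, and bulk read 0.90. At 0.1 pg the arrays after 4 rounds overlapped those of 10 pg but not those of 0.1 pg after 2 rounds. The order of means ran from 10 pg after 2 rounds through 0.1 pg (2.95 ± 0.65) and 1 pg after 2 rounds (2.71 ± 0.75), 0.1 pg (2.09 ± 0.23) and 1 pg after 4 rounds (2.03 ± 0.90) to 10 pg after 4 rounds (1.23 ± 0.99, SD, n = 3 each) and bulk, with overlap between neighbours of 3 arrays. The change for 0.1 against 10 pg after 4 rounds was 0.85 (SE 0.585, adjusted p = 0.385), and 1.42 without replicate 1 of 10 pg. Probe set 1420901_a_at stayed between -1.97 and 0.00 on the 16 amplified arrays, with a mean of -1.47 ± 0.41 for 0.1 pg and -1.47 ± 0.43 for 10 pg after 4 rounds (SD, n = 3 each).

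Aldoc, the aldolase isoform of brain, read 0.30, 0.33 and -0.20 for 0.1 pg after 4 rounds by probe set 1451461_a_at, 0.61, -1.43 and 1.48 for 1 pg, and 3.25, 0.54 and 0.44 for 10 pg. Its levels after 2 rounds were -0.72, -1.38 and -0.07 for 0.1 pg, 0.12, -0.86 and -0.05 for 1 pg, 5.56 for 10 pg, and bulk read 3.74. Replicate 1 was well above the other 10 pg arrays after 4 rounds, and all 15 arrays of the replicated groups lay below bulk. The change for 0.1 against 10 pg after 4 rounds was -1.27 (SE 0.752, adjusted p = 0.309), and without replicate 1 of 10 pg it was -0.35. The order of means was 10 pg after 2 rounds, bulk, 10 pg (1.41 ± 1.59), 1 pg (0.22 ± 1.49) and 0.1 pg after 4 rounds (0.14 ± 0.30), and 1 pg (-0.26 ± 0.52) and 0.1 pg after 2 rounds (-0.73 ± 0.66, SD, n = 3 each), with overlap between neighbours of 3 arrays. Probe set 1424714_at read from -2.80 to 0.43 over the 17 arrays and was lowest on the 10 pg array after 2 rounds, where 1451461_a_at was highest.

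Tpi1, the triosephosphate isomerase, had group means between -0.14 and 0.79 at 0.1 and 1 pg by its representing probe set. Its probe set 1415918_a_at read 0.31, -0.04 and 0.64 for 0.1 pg after 4 rounds, -0.43, 0.07 and -0.07 for 1 pg, and 2.27, 0.91 and 0.28 for 10 pg. At 2 rounds the readings were -1.15, 0.99 and 0.81 for 0.1 pg, 1.99, 0.09 and 0.30 for 1 pg, 3.84 for 10 pg, and bulk read 1.11. The arrays of 1 pg after 4 rounds lay below all those of 10 pg after 4 rounds and of 1 pg after 2 rounds. The means ran from 10 pg after 2 rounds through 10 pg after 4 rounds (1.15 ± 1.01), bulk, 1 pg after 2 rounds (0.79 ± 1.04), 0.1 pg after 4 rounds (0.30 ± 0.34) and 0.1 pg after 2 rounds (0.22 ± 1.19) to 1 pg after 4 rounds (-0.14 ± 0.26, SD, n = 3 each), and neighbours with 3 arrays overlapped. The change for 0.1 against 10 pg after 4 rounds was -0.85 (SE 0.644, adjusted p = 0.439), and without replicate 1 of 10 pg it was -0.29. Probe set 1452927_x_at had a change of -1.84 (SE 0.731, adjusted p = 0.126), which passed where only the compared groups were fitted (adjusted p = 0.0405). Probe set 1435659_a_at, which lay below the array median on every array but that of 10 pg after 2 rounds, had a change of 0.44 (adjusted p = 0.698).

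Pgk1 is the phosphoglycerate kinase that makes the first ATP of the pathway. Its representing probe set varied widely between amplifications of 0.1 pg and of 10 pg after 4 rounds. Probe set 1438640_x_at read 4.68, 0.23 and 1.52 for 0.1 pg after 4 rounds, 0.68, 0.05 and 1.20 for 1 pg, and 4.84, 4.19 and 0.46 for 10 pg. Under 2 rounds it gave 1.46, 1.68 and 1.41 for 0.1 pg, 2.12, 0.69 and 1.32 for 1 pg, 5.55 for 10 pg, and bulk read 1.55. One of 3 arrays was high for 0.1 pg after 4 rounds and 1 of 3 was low for 10 pg, so the groups overlapped widely. The order of means was 10 pg after 2 rounds, 10 pg (3.17 ± 2.37) and 0.1 pg after 4 rounds (2.14 ± 2.29), bulk, 0.1 pg (1.52 ± 0.15) and 1 pg after 2 rounds (1.38 ± 0.72) and 1 pg after 4 rounds (0.64 ± 0.57, SD, n = 3 each), with overlap between neighbours of 3 arrays. The change for 0.1 against 10 pg after 4 rounds was -1.02 (SE 1.03, adjusted p = 0.574), and with single arrays left out it ranged from -2.38 without replicate 3 of 10 pg to -0.07 without replicate 2 of 0.1 pg.

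The same arrays of Pgk1 stood out by its other probe sets in part. Probe set 1439435_x_at read 3.59, -1.95 and 0.71 for 0.1 pg and 4.82, 3.76 and 0.55 for 10 pg after 4 rounds, with a change of -2.26 (SE 1.22, adjusted p = 0.26). Probe set 1417864_at read 1.79, 0.51 and 1.12 for 0.1 pg and 4.33, 3.82 and 1.46 for 10 pg after 4 rounds. Replicate 3 of 10 pg was thus low by all 3 probe sets, while replicate 1 of 0.1 pg was high by both _x_at probe sets. The change of 1417864_at was -2.06 (SE 0.849, adjusted p = 0.139), and without replicate 3 of 10 pg it was -2.94 and passed (adjusted p = 0.0431).

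The first step of the dilution after 4 rounds, 1 against 10 pg, called none of the 21 probe sets with limma, against 0.588% of all probe sets called lower and 0.0688% called higher. Of the 21 changes 20 were below 0, against 21094 of all 45037, and probe sets of the same gene are not independent. The median change was -0.99, against 0.05 over all probe sets. Of the 21, 6 had an unadjusted p under 0.05, all toward lower levels at 1 pg, against 4284 of all 45037. The test of the study's methods also called 0 of the 8 genes. Ldhb 1434499_a_at had the change farthest below 0, -3.04 (SE 1.03, adjusted p = 0.269), and that of Eno2 was -1.24 (SE 0.889, adjusted p = 0.768). This comparison shares its 10 pg arrays with that of 0.1 against 10 pg.

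For 0.1 against 1 pg, averaged over both numbers of rounds, Eno2 and Pgam1 fell again. These were 2 of 21 probe sets and 2 of 8 genes, where 0.986% of all probe sets and 1.28% of all genes were called lower and 0.255% of all probe sets higher. Of the 22062 probe sets whose mean was not below the array median, 571 were called lower and 128 higher. Eno2 fell by 3.57 (SE 0.628, adjusted p = 0.00882) and Pgam1 by 2.37 (SE 0.436, adjusted p = 0.0119). After 4 rounds, and likewise after 2 rounds, every 0.1 pg array lay below every 1 pg array for both genes. The median change of the 21 was -0.27, with 13 below 0, against 0.05 over all probe sets, with 20863 of 45037 below 0. Ldhb 1434499_a_at had a change of -2.74 (SE 0.728) that did not pass (adjusted p = 0.0807), and Aldoa 1439375_x_at one of -2.02 (SE 0.577, adjusted p = 0.104). The 0.1 pg arrays after 4 rounds enter this comparison and that against 10 pg.

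Additional rounds at 1 and 0.1 pg called none of the 21 probe sets with limma, where 1.91% of all probe sets were called lower and 1.99% higher after 4 rounds. The methods' test, which pooled both inputs, called 0 of the 8 genes. By limma 2 probe sets had an unadjusted p under 0.05, those of Pgam1 and Eno2, against 9840 of all 45037. Pgam1 averaged 0.95 ± 0.74 and 2.82 ± 0.55 for 0.1 and 1 pg after 4 rounds, against -1.0 ± 0.87 and 1.87 ± 1.11 after 2 rounds (SD, n = 3 each). Its change of 1.45 (SE 0.436) did not pass (adjusted p = 0.0711), but did without replicate 2 of 1 pg after 2 rounds (1.77, adjusted p = 0.042) or without replicate 2 of 0.1 pg after 2 rounds (1.70, adjusted p = 0.0374). Eno2 had a change of 1.53 (SE 0.628, adjusted p = 0.17). The median change was -0.05 over the 21 and over all probe sets.

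The effect of rounds was not shown to differ between 0.1 and 1 pg for any of the 21 probe sets. With limma 0 were called and 0 had an unadjusted p under 0.05, against 9425 of all 45037, where 1.14% of all probe sets were called lower and 2.46% higher. The difference was -1.16 for Eno2 (SE 1.26, adjusted p = 0.637) and 0.99 for Pgam1 (SE 0.872, adjusted p = 0.545).

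Against the unamplified mRNA, the mean of the 6 amplified groups was lower for 1 probe set of Aldoa and 1 of Hk1, while none of the 8 genes was called by its representing probe set. This is 2 of 21 lower and 0 higher, against 1.03% of all probe sets called lower and 0.0711% called higher. The deposited values, without centering or scaling, called 554 lower and 158 higher over all probe sets, in place of 462 and 32. The spread of the single bulk array is taken from the other groups, and a deviation of that array and an effect of amplification cannot be told apart.

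Aldoa 1434799_x_at lay between -1.15 and 2.27 on the 15 arrays of the replicated groups and at 6.17 on the 10 pg array after 2 rounds, against 5.00 in bulk. It fell by 3.68 (SE 0.779, adjusted p = 0.0323). Hk1 1420901_a_at lay between -1.97 and 0.00 on the amplified arrays, against 1.29 in bulk, and fell by 2.44 (SE 0.527, adjusted p = 0.0344). That call was lost without replicate 1 of 0.1 pg after 4 rounds (-2.46, adjusted p = 0.0545). For the other Hk1 probe set, 1437974_a_at, the change was 1.65 (SE 0.743, adjusted p = 0.346), and 14 of the 16 amplified arrays were above bulk. Pgam1 lay below bulk on all 16 amplified arrays, with a change of -3.28 (SE 0.783) that did not pass (adjusted p = 0.0543). It did pass with the values as deposited, with centering but no scaling, with quantile normalization and without the 10 pg array after 2 rounds. Leaving out replicate 2 of 1 pg, replicate 1 of 0.1 pg or replicate 2 of 0.1 pg after 2 rounds made it pass as well, with changes from -3.38 to -3.22 and adjusted p from 0.0348 to 0.0497.

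The control probe sets for Gapdh, the dehydrogenase between the aldolase and kinase steps, read 3 parts of 1 transcript. That for the 3′ end stayed between 5.58 and 6.57 on all 17 arrays. The one for the middle read from -1.05 to 2.91 on the amplified arrays, against 4.20 in bulk, and the one for the 5′ end from 0.91 to 3.76, against 3.78, so both were highest in bulk. The middle averaged 0.69 ± 0.15, 1.33 ± 0.36 and 1.51 ± 0.26 for 0.1, 1 and 10 pg after 4 rounds (SD, n = 3 each), and 0.47 ± 1.32, 0.91 ± 0.46 and 2.91 after 2 rounds. The 5′ end averaged 2.16 ± 0.20, 1.83 ± 0.56 and 1.21 ± 0.09 after 4 rounds, and 2.99 ± 0.81, 1.98 ± 1.0 and 2.70 after 2 rounds. After 4 rounds the mean of the middle was thus lowest at 0.1 pg and that of the 5′ end lowest at 10 pg. Where the probes of the other enzymes lie along their transcripts was not analysed here, and any part of probe position in their changes was not tested.

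The enzymes did not all move together from array to array. Over the 17 arrays, Pearson's r between the representing probe sets of different genes had a median of 0.35 in 28 pairs, from -0.25 to 0.86. Aldoa and Aldoc had the highest (r = 0.86), followed by Pgam1 and Eno2 (r = 0.83). By Spearman's rho the order was another, with 0.81 for Pgam1 and Eno2, 0.78 for Tpi1 and Pgk1, 0.74 for Aldoc and Pgam1, 0.69 for Hk1 and Ldhb and 0.63 for Aldoa and Aldoc. In the 24 pairs of probe sets of the same gene the median was 0.71, from -0.47 to 0.96. Over the 16 amplified arrays the medians were 0.39 and 0.76. These correlations describe arrays that share input and rounds within a group, and the single 10 pg array after 2 rounds was high for most of the genes. The genes whose level was most like the mean of the 8 were Hpcal4 (r = 0.945), Gdi2 (r = 0.942), Ndufa13 (r = 0.935), Plekhb1 (r = 0.930) and Ndrg4 (r = 0.926) over 17 arrays. By Spearman's rho, 5 other genes led, Stmn1, Cbx6, Pip4p2, Rgs4 and Glul.

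Other genes of glucose and lactate metabolism were called in both directions with dilution, as were probe sets over the whole array. Of 40 listed genes 34 were measured, by 65 probe sets, and 4 of these fell and 5 rose for 0.1 against 10 pg after 4 rounds, where 4.83% of all probe sets fell and 4.04% rose. The median change was -0.01, against -1.23 for the 21 probe sets of the enzymes and 0.10 over all probe sets. Pkm, the pyruvate kinase of muscle and brain, has 1 probe set, which fell by 1.69 (SE 0.453, adjusted p = 0.0293). Of 3 probe sets of Pfkl, a subunit of the rate-limiting phosphofructokinase, 1 fell (-2.15, SE 0.608, adjusted p = 0.0374), while the representing one was at -1.24 and the other at 0.56. Of 4 probe sets of Pgd, an enzyme of the pentose phosphate pathway, 2 fell (-1.81 and -1.80), while the representing one was at 1.36 and the other at -0.67.

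The calls toward higher levels at 0.1 pg likewise left out some probe sets of each gene. The neuronal glucose transporter Slc2a3 rose by 2 of 4 probe sets (2.14 for the representing one and 1.89), with the others at 1.43 and -0.68. Pfkfb2, which sets the fructose 2,6-bisphosphate level, rose by 1 of 4 (2.06, SE 0.511), with the others from -0.42 to 0.69. The representing probe set of the monocarboxylate transporter Slc16a1 rose (1.80, SE 0.517), while the other was at -1.55. For Pdha1 of pyruvate dehydrogenase 1 of 2 rose (1.54, SE 0.449), and the representing one was at 0.74.

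In the other comparisons few of the 65 probe sets were called. For 1 against 10 pg after 4 rounds and for 0.1 against 1 pg, limma called 0, with an unadjusted p under 0.05 in 5 and 10 of the 65, against 4284 and 6792 of all 45037. With additional rounds 1 of 3 probe sets of Bpgm, which makes 2,3-bisphosphoglycerate, fell by 1.19 (SE 0.323, adjusted p = 0.0494), with the representing one at 2.21. One of 4 of Pgd (1.26, SE 0.298) and 1 of 2 of Pdhb of pyruvate dehydrogenase (1.22, SE 0.329) rose, with the representing ones at 0.01 and 0.56. The effect of rounds at 0.1 pg exceeded that at 1 pg for 1 probe set each of Pdha1 (3.28, SE 0.635) and Pfkfb2 (3.26, SE 0.722), and was smaller for 1 of the glucose transporter Slc2a1 (-2.95, SE 0.77), with the representing ones at 1.35, 0.11 and -0.04. Against bulk, 4 were lower on the amplified arrays, 1 each of Slc16a1 (-5.39, SE 0.96), Slc2a3 (-3.29, SE 0.543), the gluconeogenic Pck1 (-3.23, SE 0.686) and Dlat of pyruvate dehydrogenase (-2.55, SE 0.579). That of Pck1 represents its gene, and the representing ones of Slc16a1, Slc2a3 and Dlat were at 0.73, -1.88 and -1.97.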

How the data were processed

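The authors deposited log2 values of 17 Affymetrix mouse arrays, made with RMA 2.0 and, by the methods, an upper decile summary of the probes. The deposited values, 1.56 to 15.8, hold neither the median centering nor the scaling of the methods (array medians 5.64 to 6.01), so both were applied here, times the mean range of 4.63. Array columns were matched to samples by label, and the groups come from the labels. Of 45101 probe sets, 64 controls were left out. Symbols come from GEO's platform annotation: 34945 probe sets have 1 symbol, 932 several and 9160 none. Probe sequences were not used here, and no sequence is shown.

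The model was fitted in limma 3.58.1 under R 4.3.3 (7 group means over 17 arrays, contrasts, eBayes) and adjusted by Benjamini and Hochberg over 45037 probe sets. The pipeline was tested on simulated data. Python 3.11.15 with pandas 2.3.3, numpy 2.4.6 and scipy 1.17.1 gave levels and correlations, and matplotlib 3.10.9 the figures. No pair of arrays shared more than 0.925% identical values. Precision is limited by how many arrays there are.

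The enzymes, the lists and the tests were chosen with earlier results of these data known. The genes named are all enzymes of the list with their probe sets, the genes past the threshold among the other genes of glucose and lactate metabolism, and the 5 genes most like the mean of the enzymes. Alternatives were quantile normalization, centering without scaling, the values as deposited, a filter on probe sets below the array median, the methods' t-test, a false discovery rate of 0.1% as in the paper, only the compared groups, a median over the probe sets of a gene, all probe sets one by one, the replicate number as a block, other amplified groups, and each replicate left out.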

Additional observations from a re-analysis of the deposited data

How the results depend on the processing

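For 0.1 against 10 pg after 4 rounds 2 of 8 genes were called. A median over the probe sets of a gene gave 3, with Aldoa added, though that median fell on different probe sets on different arrays. Counting probe sets one by one gave 5, and the false discovery rate of 0.1% and the methods' t-test gave 0. Leaving out 1 array gave 1 to 2, with 1 only without replicate 1 of 10 pg. For 0.1 against 1 pg, 2 became 0 at that rate and with the t-test. For additional rounds, 0 became 1 without replicate 2 of 1 pg or of 0.1 pg after 2 rounds (0 to 1 over single arrays). For amplified against bulk, 0 became 1 with quantile normalization, centering without scaling, the values as deposited, a median over the probe sets of a gene and without the 10 pg array after 2 rounds, 2 with probe sets one by one, and 0 to 1 without single arrays, 1 without replicate 2 of 1 pg or replicates 1 or 2 of 0.1 pg after 2 rounds. The t-test's loss for Eno2 came with adjusted p = 0.102 against 10 pg and 0.457 against 1 pg. Against 1 pg this t-test pooled both numbers of rounds, and for additional rounds it pooled both inputs. Differences between the pooled groups thus entered its spread, unlike in the limma fit of group means. Of 155 enzyme values that had passed, 0 turned sign, and of 2292 in all 82 did. These counts include alternatives whose sign could not turn. The stricter rate, the filter, the replicate block, the compared groups alone and the t-test leave the difference of means as it was. Fits without single arrays share most of their arrays with the first fit. Hk1 1420901_a_at (0.00 for 0.1 against 10 pg after 4 rounds) turned to -0.041 with quantile normalization and to between -0.18 and -0.06 without replicate 1 or 2 of either input (-0.18 to 0.24 over single arrays), and Hk1 against bulk turned to -0.40 with the median of its probe sets. The cause was not tested.

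Same-numbered arrays did not deviate together over all probe sets (r from -0.199 to 0.139 in 30 pairs). For arrays of different number r ran from -0.189 to 0.264 in 60 pairs. A pairing that acts on fewer probe sets was not tested. With the replicate number as a block 2, 0, 2, 0, 0 and 0 genes were called in the 6 comparisons in the order of the report, as without it, and Hk1 1420901_a_at against bulk was no longer called. With only the compared groups fitted, 3674 probe sets fell and 4420 rose for 0.1 against 10 pg, in place of 2174 and 1818. The deposited values moved the median of all probe sets to 0.20 for 0.1 against 10 pg and to 0.30 for amplified against bulk.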
